A study of Mus musculus with 4 samples.

Results

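The 8 SMAD genes and 2 TGF-beta receptor genes were followed in bulk RNA sequencing of mouse stomach at 12 weeks of age. The 10 members, chosen by gene symbol from a table of 46095 symbols, were *Smad1*, *Smad2*, *Smad3*, *Smad4*, *Smad5*, *Smad6*, *Smad7*, *Smad9*, *Tgfbr1* and *Tgfbr2*. The comparison was between 2 *Atp4b-cre;MycOE* samples, titled MYC-KI in the labels, and 2 wild type (WT) samples, all on C57BL/6. In the *Atp4b-cre;MycOE* animals, Cre driven by the promoter of *Atp4b* (a proton pump subunit of the parietal cell) switches on a human *c-Myc* transgene in the parietal lineage. According to the methods of the study the *Atp4b-cre;MycOE* animals were *Myc* fl/+ and the WT animals were *Myc* fl/fl mice with no Cre. Cre and the number of floxed copies thus differed along with transgene expression, and their parts cannot be told apart. The labels give the tissue as stomach and not which region was taken. In such bulk tissue fewer cells of a type and less RNA per cell cannot be told apart in any value below. The series text speaks of triplicate profiles, and 2 samples per genotype were analysed here. The labels number the replicates but do not say whether each is a separate animal, and p-values measure only the spread between these samples.

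SMADs carry the signal of the TGF-beta family from the cell surface to the nucleus. A ligand brings a type II receptor such as *Tgfbr2* together with a type I receptor such as *Tgfbr1*, which phosphorylates the receptor-regulated SMADs. *Smad2* and *Smad3* serve the TGF-beta and activin branch, and *Smad1*, *Smad5* and *Smad9* serve the BMP branch. The common SMAD, *Smad4*, joins either kind and the complex moves into the nucleus, while the inhibitory SMADs, *Smad6* and *Smad7*, are induced by the signal and dampen it. In the stomach TGF-beta signaling restrains epithelial growth and acts on fibroblasts and vessels.

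The names of the deposited table are sorted without regard to case, whereas the counts in both MYC-KI columns follow the names sorted by character code. Those counts were therefore assigned in row order to the names in that second order before any comparison, and the WT columns were left as they were. Each of the 10 members stands 397 rows apart in the 2 orders. Over the 61 rows around each member, Pearson's r of mean log2(count + 1) between the genotypes lay between 0.978 and 0.986 after re-sorting, and between -0.390 and 0.138 as deposited. This r is across genes, which are not independent replicates. The SMAD names stand in adjacent rows, as do the receptor names, so their windows largely share the same rows and are not separate checks. The second order was inferred from this table alone, no measurement outside it was used to check it, and every MYC-KI value not given as deposited rests on it.

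The counts summed to 30260305 to 41463647 per sample, and 17643 genes were tested. The labelled tissue was checked on gastric markers. The surface mucous genes *Gkn1* and *Muc5ac* had at least 49706 counts in every sample, but were at 30.1% and 18.2% of WT in MYC-KI samples and called lower. *Xist* had 17846 counts in WT replicate 2 and 85 to 201 in the other samples, so WT replicate 2 alone carried this female mark. Mouse *Myc* was counted 1062 and 759 times in the WT samples and 735 and 1091 times with the transgene, and since the transgene is human this row does not check the labels. In the MYC-KI samples 7 of 7 parietal cell markers and 8 of 8 endothelial markers were called lower, as were 4 of 5 tested chief cell, 4 of 5 surface mucous cell, 3 of 8 fibroblast, 3 of 7 tested leukocyte, 2 of 5 adipocyte and 2 of 3 tested pancreatic acinar markers. None of 4 mucous neck cell, 7 smooth muscle and 8 forestomach squamous markers was called in either direction. The squamous markers summed to 2420 and 1374 normalized CPM (counts scaled to library size and TMM factor) in WT and to 812 and 4122 in MYC-KI samples, so the MYC-KI samples stood at opposite ends. *Lipf*, another chief cell gene, was at 0 in all 4 samples. A gene counts as called where edgeR's quasi-likelihood test gave an adjusted p below 0.05 and the fold change exceeded 1.5-fold in either direction (0.585 on the log2 scale).

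Of the 10 members 2 were called, both lower in *Atp4b-cre;MycOE* stomach: the type II receptor *Tgfbr2* at 57.0% of the WT mean and the inhibitory *Smad6* at 65.5%. None was called higher. Over all tested genes 10.7% were called, 5.65% higher and 5.08% lower. *Smad9* lay at 37.4% of WT, the largest difference among the members, and missed the threshold narrowly. *Smad2* lay at 92.5% of WT and *Smad4* at 118%, and *Smad1* and *Smad5* at 103% and 102%. The median log2 fold change was -0.18 over the 10 members and 0.01 over all tested genes. In 8 of 10 members the 2 genotypes did not overlap, 6 lower and 2 higher in MYC-KI samples, where the share over all tested genes was 64.9%.

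**Figure D1:**
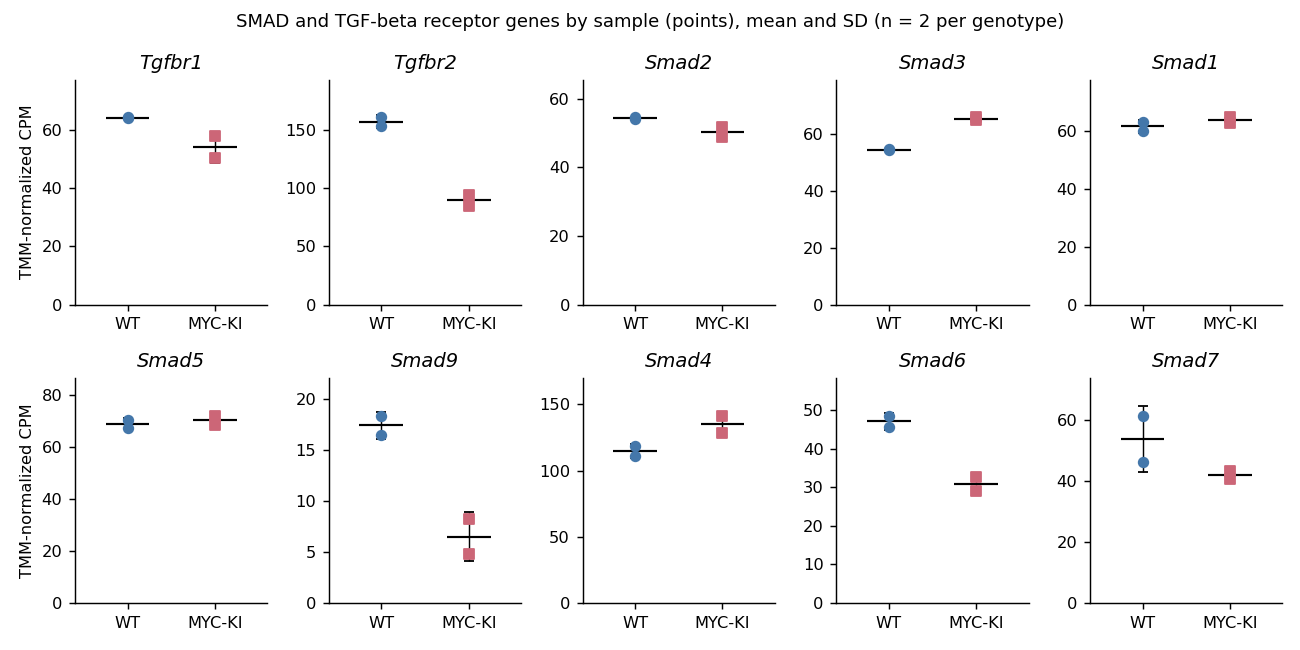
TMM-normalized CPM (vertical axis, from 0) of the 10 members, 1 panel each. Points are samples (circles WT, squares MYC-KI), the long bar is the mean and the whisker the SD of 2 samples. The MYC-KI samples of *Tgfbr2* lie at 84.8 and 94.4 against 153 and 161 in WT, while those of *Smad1* and *Smad5* overlap with WT.

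Of the receptors, *Tgfbr2*, the ligand-binding type II receptor kinase, had 153 and 161 normalized CPM in the WT samples and 84.8 and 94.4 in the MYC-KI samples. Both MYC-KI samples lay far below both WT samples, and the spread within a genotype was small. The log2 fold change was -0.81 (standard error 0.09, 95% interval -1.06 to -0.56, adjusted p = 0.0227 in edgeR). *Tgfbr1*, the type I receptor kinase, had 64.0 and 64.4 normalized CPM in WT and 57.9 and 50.3 in MYC-KI samples. The genotypes did not overlap, but its log2 fold change of -0.25 (95% interval -0.52 to 0.02, adjusted p = 0.169) did not pass. Per kilobase of merged exons, *Tgfbr2* was at 1.91 and 1.99 times the level of *Tgfbr1* in WT and at 1.17 and 1.5 times in MYC-KI samples.

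*Smad6*, which mainly dampens the BMP branch, had 45.6 and 48.6 normalized CPM in WT and 32.7 and 29 in MYC-KI samples. The lower WT sample was still above the higher MYC-KI sample. Its log2 fold change was -0.61 (standard error 0.11, 95% interval -0.90 to -0.32, adjusted p = 0.0395), close to the limit of 0.585. *Smad7*, which blocks the type I receptor, had 46.1 and 61.4 normalized CPM in WT and 40.7 and 43.3 in MYC-KI samples. It was the member whose WT samples differed most from each other in normalized CPM, and WT replicate 2 was the high one. The log2 fold change of *Smad7* was -0.35 (95% interval -0.79 to 0.08, adjusted p = 0.209), and it was -0.14 without WT replicate 2.

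*Smad9*, the least abundant SMAD and a receptor-regulated SMAD of the BMP branch, had 18.4 and 16.5 normalized CPM in WT and 4.84 and 8.22 in MYC-KI samples. Both MYC-KI samples were well below WT, with MYC-KI replicate 1 the lower. The log2 fold change was -1.42 (standard error 0.30, 95% interval -2.23 to -0.60), and the adjusted p of 0.0538 from edgeR did not pass. With DESeq2 *Smad9* passed (log2 fold change -1.43, adjusted p = 0.000286), and it was called in 5 of 10 alternatives run on the re-sorted counts. The other SMADs of this branch were close to equal in the 2 genotypes. *Smad1* had 63.1 and 60.0 normalized CPM in WT and 64.6 and 62.5 in MYC-KI samples, and its interval ran from -0.16 to 0.25 on the log2 scale. *Smad5* had 70.3 and 67.2 in WT and 71.9 and 68.2 in MYC-KI samples, with an interval from -0.18 to 0.24. In both genes the genotypes overlapped, and the intervals ran from 0.895-fold to 1.19-fold of WT for *Smad1* and from 0.881-fold to 1.18-fold for *Smad5*.

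*Smad2* and *Smad3*, the SMADs that *Tgfbr1* phosphorylates, stood on opposite sides of zero and neither was called. *Smad2* had 54.6 and 53.9 normalized CPM in WT and 48.8 and 51.6 in MYC-KI samples (log2 fold change -0.11, 95% interval -0.33 to 0.10, adjusted p = 0.390), and with library size in place of TMM scaling the sign turned to 0.11. *Smad3* had 54.5 and 54.6 in WT and 65.9 and 64.7 in MYC-KI samples, with little spread in either genotype (log2 fold change 0.26, 95% interval 0.07 to 0.45, adjusted p = 0.0859). *Smad4*, the common SMAD, had 118 and 111 normalized CPM in WT and 142 and 128 in MYC-KI samples. Its log2 fold change was 0.23 (95% interval -0.01 to 0.48, adjusted p = 0.162). The lower bounds of these intervals were 0.797-fold of WT for *Smad2*, 1.05-fold for *Smad3* and 0.990-fold for *Smad4*.

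**Figure D2:**
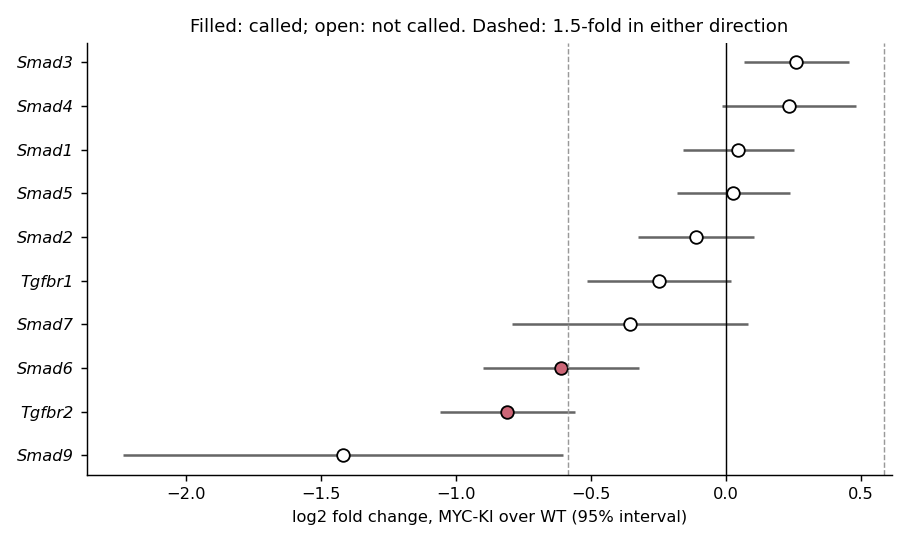
Log2 fold change of MYC-KI over WT (horizontal axis) with its 95% interval for the 10 members, ordered by size. Filled circles are called genes and dashed lines mark 1.5-fold. Only *Tgfbr2* (-0.81) and *Smad6* (-0.61) are filled, and the widest interval is that of *Smad9* (-2.23 to -0.60).

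These calls rest on 2 samples per genotype. *Tgfbr2* was called in 7 of 10 alternatives and missed with the replicate number as a block (adjusted p = 0.0560) and without WT replicate 1 or 2 (0.197 and 0.232), where 0 of all tested genes were called by edgeR although 3554 and 3410 had an unadjusted p under 0.05. Its log2 fold change stayed between -0.89 and -0.59. *Smad6* was called in 5 of 10, with a log2 fold change between -0.70 and -0.39.

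Promoter sequence is shown for the 3 members with the largest differences, as the 250 bases before the RefSeq start site (build GRCm38.p6, the assembly of mm10). Capitals mark CAGAC, a short box bound by *Smad3* and *Smad4*, or GGCGCC, a GC-rich box bound by SMADs, searched on both strands. *Tgfbr2* is on chr9:116175364-116175613 (minus strand), *Smad6* on chr9:64022060-64022309 (minus strand) and *Smad9* on chr3:54755332-54755581 (plus strand), each printed 5′ to 3′ in the direction of the gene.
Tgfbr2: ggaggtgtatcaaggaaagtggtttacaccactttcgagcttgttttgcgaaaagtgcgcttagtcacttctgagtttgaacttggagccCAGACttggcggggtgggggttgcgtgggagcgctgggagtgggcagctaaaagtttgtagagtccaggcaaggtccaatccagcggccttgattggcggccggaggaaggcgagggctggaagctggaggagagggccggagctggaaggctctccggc
Smad6: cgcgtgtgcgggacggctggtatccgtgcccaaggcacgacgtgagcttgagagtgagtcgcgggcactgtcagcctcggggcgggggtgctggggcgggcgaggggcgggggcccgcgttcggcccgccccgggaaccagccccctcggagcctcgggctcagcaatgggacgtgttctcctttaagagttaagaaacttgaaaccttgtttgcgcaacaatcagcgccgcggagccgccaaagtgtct
Smad9: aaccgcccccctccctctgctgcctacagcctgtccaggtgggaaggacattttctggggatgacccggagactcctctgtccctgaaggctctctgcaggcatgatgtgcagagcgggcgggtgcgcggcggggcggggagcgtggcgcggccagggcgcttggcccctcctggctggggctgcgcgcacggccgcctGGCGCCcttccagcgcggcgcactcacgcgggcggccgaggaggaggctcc
The *Tgfbr2* window holds 1 CAGAC, the *Smad9* window 1 GGCGCC, and the *Smad6* window neither. Of 32851 RefSeq windows of this length, 42.2% hold CAGAC and 9.59% hold GGCGCC. The canonical E-box of MYC and MAX, CACGTG, was in 0 of the 10 windows found for 7 of the members, and in 6.02% of all windows. The GC content was 58.4% for *Tgfbr2*, 66.8% for *Smad6* and 73.2% for *Smad9*, against a median of 52.4% over all windows.

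In genomic terms *Tgfbr2*, *Smad3* and *Smad6* lie on chromosome 9, *Smad2*, *Smad4* and *Smad7* on chromosome 18, and the others on chromosomes 3, 4, 8 and 13 (GENCODE M21, GRCm38). *Smad3* (63646767 to 63757994) and *Smad6* (63953076 to 64022059) are neighbors on the minus strand of chromosome 9. The former had a log2 fold change of 0.26 and the latter one of -0.61. Exons of no other gene in the table overlapped those of a member.

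Levels between genes were compared per kilobase of merged exons. *Smad4* was the most abundant SMAD in all 4 samples, with 33.5% and 31.1% of the summed SMAD level in WT and 39.9% and 37.8% in MYC-KI samples. *Smad6* took 14.9% and 15.7% in WT and 10.7% and 9.89% in MYC-KI samples, and *Smad3* took 10.3% and 10.2% in WT and 12.4% and 12.8% in MYC-KI samples. Their places depended on the length used. *Smad6* was second among the SMADs in WT per merged exons, but with 8.36% of the summed level it was next to last per coding length. *Smad3* was second in MYC-KI samples per merged exons, and stood below *Smad5* (15.8% against 16.0%) per coding length. *Smad9* took the least, 3.60% and 3.19% in WT and 0.941% and 1.67% in MYC-KI samples. The sum over the 8 SMADs was 95.3 and 96.4 normalized CPM per kilobase in WT and 95.7 and 91.5 in MYC-KI samples, so its ranges overlapped. Per coding length the sum was 320 and 323 in WT and 319 and 310 in MYC-KI samples, which do not overlap by a narrow margin. *Smad3* was at 1.58 and 1.6 times the level of *Smad2* in WT and at 2.14 and 1.99 times in MYC-KI samples. The inhibitory SMADs together were at 0.626 and 0.763 times the summed receptor-regulated SMADs in WT, and at 0.501 and 0.487 times in MYC-KI samples. Per coding length the latter ratio was 0.33 and 0.417 in WT and 0.274 and 0.274 in MYC-KI samples, and that of *Smad3* to *Smad2* was 1.15 and 1.16 in WT and 1.56 and 1.44 in MYC-KI samples. The genotypes did not overlap in either ratio with either length, and these ratios were not tested. An exact permutation test of 2 samples against 2 cannot go below p = 0.333.

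**Figure D3:**
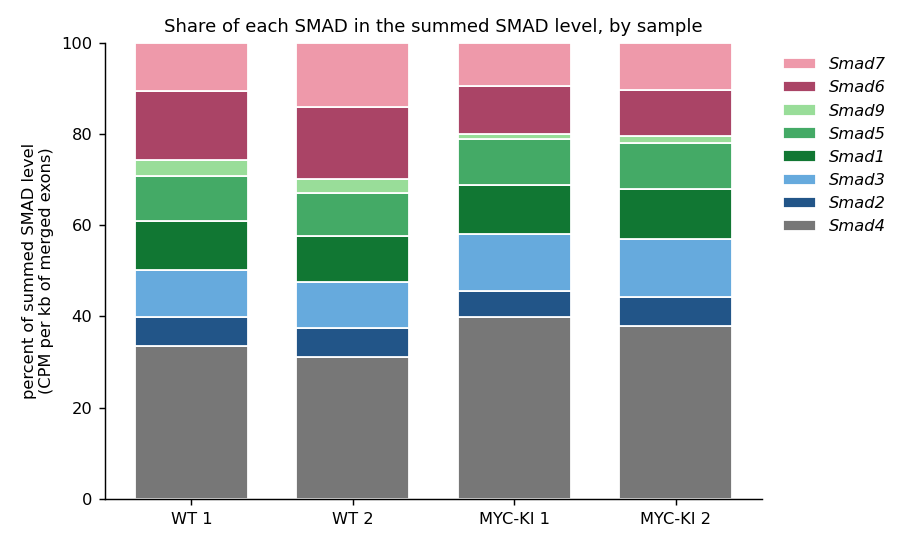
Percent of the summed SMAD level (vertical axis, normalized CPM per kilobase of merged exons) taken by each SMAD in each of the 4 samples. *Smad4* makes the largest block in every sample, 33.5% and 31.1% in WT and 39.9% and 37.8% in MYC-KI samples, and the *Smad6* block is smaller in both MYC-KI samples.

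Markers of other cells moved with these differences. The 8 endothelial markers summed to 459 and 435 normalized CPM in WT and to 182 and 180 in MYC-KI samples, and the 8 fibroblast markers to 2327 and 2508 in WT and 647 and 1169 in MYC-KI samples. None of these markers was at 0 in any sample, and the defining endothelial genes *Cdh5* and *Pecam1* were at 49.9% and 45.4% of WT. Per 100 CPM of summed endothelial markers, *Tgfbr2* was at 33.4 and 37.0 in WT and 46.6 and 52.3 in MYC-KI samples, and *Smad6* at 9.94 and 11.2 in WT and 18.0 and 16.1 in MYC-KI samples. Since the endothelial sum itself was lower in MYC-KI samples, a gene at equal level in both genotypes also rises on this scale. Per 100 CPM of summed fibroblast markers *Smad9* was at 0.791 and 0.659 in WT and at 0.747 and 0.703 in MYC-KI samples, which overlap. On the endothelial scale *Smad9* overlapped too, at 4.01 and 3.80 in WT and 2.66 and 4.55 in MYC-KI samples. Both MYC-KI samples lay above both WT samples for 9 of 10 members on each of these scales. The 7 smooth muscle markers summed to 7886 and 5011 in WT and 2591 and 5459 in MYC-KI samples. Like *Smad9* they were lowest in MYC-KI replicate 1, which was not particular to them. The fibroblast, parietal, chief, surface mucous, squamous, acinar and adipocyte sums were lowest there too. Those of endothelial, leukocyte and mucous neck cell markers were not. The 8 leukocyte markers summed to 108 and 125 in WT and 58.0 and 43.1 in MYC-KI samples. Parietal markers summed to 10826 and 10990 in WT and 268 and 321 in MYC-KI samples, and chief cell markers to 84853 and 80511 in WT and 1198 and 1518 in MYC-KI samples. The part of these cell types in the differences of *Tgfbr2*, *Smad6* and *Smad9* was not tested.

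**Figure D4:**
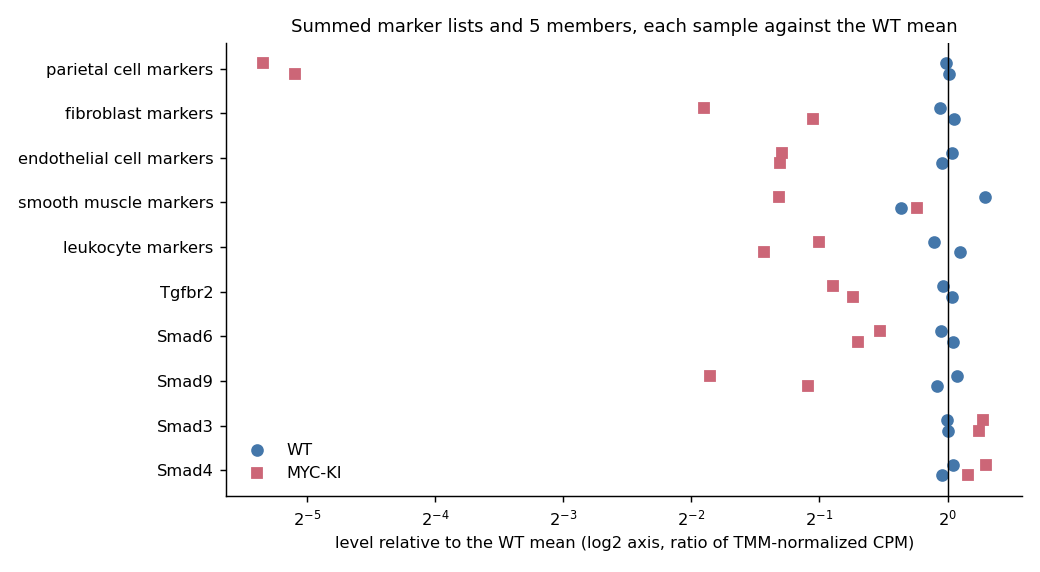
Level of 5 summed marker lists and 5 members in each sample relative to the WT mean (horizontal log2 axis, ratio of normalized CPM; circles WT, squares MYC-KI). Endothelial and fibroblast marker sums lie left of *Tgfbr2* and *Smad6* in the MYC-KI samples, and *Smad3* and *Smad4* lie to the right of the WT mean.

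In 7 lists of other genes in the pathway, 67 of 70 genes were tested, and 3 were called higher and 8 lower (16.4% of those tested, against 10.7% of all tested genes). The median log2 fold change over the 67 genes was -0.27. *Nodal*, *Foxh1* and *Runx3* had at most 6 counts in any sample and were not tested. None of the 11 calls held with the replicate block or without either WT sample.

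Among 9 ligand genes 1 of 8 tested was called. *Inhbb*, the beta B subunit of activin and inhibin, had 14.2 and 22.5 normalized CPM in WT and 59.4 and 55.8 in MYC-KI samples (log2 fold change 1.65, standard error 0.25, adjusted p = 0.0314). It was 3.14-fold higher, and its 2 WT samples lay far below both MYC-KI samples. The TGF-beta ligands *Tgfb1*, *Tgfb2* and *Tgfb3* had log2 fold changes of -0.25, -1.01 and -0.73, with adjusted p-values of 0.370, 0.0735 and 0.280. Among 10 genes of ligand latency and activation, only *Furin* was called, the convertase that cleaves TGF-beta precursors. *Furin* had 1444 and 1423 normalized CPM in WT and 237 and 129 in MYC-KI samples (log2 fold change -2.97, standard error 0.33, adjusted p = 0.0213). The remaining 9 genes of that list had log2 fold changes of -1.20 to 0.42.

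Of 12 other receptors and co-receptors, 4 were called lower and 0 higher, and 11 of 12 had a log2 fold change below 0. Over all tested genes 5.08% were called lower, and 50.9% had a log2 fold change above 0. *Acvrl1*, the type I receptor of endothelial cells, had 46.1 and 47.4 normalized CPM in WT and 17.6 and 21.1 in MYC-KI samples (log2 fold change -1.27, standard error 0.13, adjusted p = 0.0200). Its endothelial co-receptor *Eng* had 69.5 and 83.8 in WT and 31.4 and 35.5 in MYC-KI samples (-1.19, standard error 0.13, adjusted p = 0.0214). The 8 endothelial markers had a median log2 fold change of -1.23. *Bmpr1b*, a type I receptor for BMPs, had 18.3 and 29 normalized CPM in WT and 2.86 and 6.20 in MYC-KI samples (log2 fold change -2.38, adjusted p = 0.0476). Without MYC-KI replicate 2 the log2 fold change of *Bmpr1b* was -3.04, and without MYC-KI replicate 1 it was -1.93. *Acvr1c*, a type I receptor for activin B and nodal, had 10.6 and 15.7 in WT and 3.27 and 4.57 in MYC-KI samples (-1.74, adjusted p = 0.0397), and without MYC-KI replicate 1 it missed (-1.52, adjusted p = 0.0663). *Bmpr1a*, the most abundant by normalized CPM in the list, had 193 and 203 in WT and 160 and 170 in MYC-KI samples and was not called (-0.27, adjusted p = 0.110).

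Of 12 SMAD adaptors, ubiquitin ligases and phosphatases, 0 passed edgeR's thresholds, and the largest difference was that of *Usp9x*, a deubiquitinase of *Smad4*, with 199 and 233 normalized CPM in WT and 154 and 149 in MYC-KI samples (log2 fold change -0.52, adjusted p = 0.0519). Of 10 tested nuclear partners and co-repressors 1 was called, the repressor *E2f4*, with 41.6 and 47.4 in WT and 72.4 and 64.7 in MYC-KI samples (0.62, standard error 0.11, adjusted p = 0.0401). *E2f4* was called in 6 of 10 alternatives and missed, among others, without MYC-KI replicate 1 (0.54, adjusted p = 0.0720). The co-repressor *Tgif2* had 2.0 and 3.08 normalized CPM in WT and 5.84 and 4.84 in MYC-KI samples (1.07, adjusted p = 0.105). *Ski*, a co-repressor that binds *Smad4*, had 163 and 159 in WT and 119 and 139 in MYC-KI samples (-0.32, adjusted p = 0.114).

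Genes known to be induced by TGF-beta moved in both directions. Of 11 such genes 1 was called higher and 3 lower. *Pmepa1*, which sequesters *Smad2* and *Smad3*, had 75.5 and 85.5 normalized CPM in WT and 149 and 139 in MYC-KI samples (log2 fold change 0.84, standard error 0.10, adjusted p = 0.0234). *Tgfbi*, an extracellular matrix protein, had 131 and 136 in WT and 67.0 and 76.9 in MYC-KI samples (-0.89, standard error 0.10, adjusted p = 0.0222). *Cdkn2b*, an inhibitor of G1 cyclin kinases, had 23.9 and 30.4 in WT and 15.5 and 14.1 in MYC-KI samples (-0.88, adjusted p = 0.0471), and was called in 4 of 10 alternatives, missing with any 1 of the 4 samples left out (adjusted p of 0.0690 to 0.253). *Col1a1*, a collagen of fibroblasts, had 410 and 499 in WT and 131 and 197 in MYC-KI samples (-1.47, adjusted p = 0.0349). The fibroblast marker sum above, which itself holds the collagen genes *Col1a2* and *Col3a1*, was also lower. The part of fibroblasts in the difference of *Col1a1* was not tested. Of the 4 *Id* genes, which BMP SMADs induce, 0 were called by edgeR with TMM scaling. *Id1* had 191 and 196 normalized CPM in WT and 268 and 274 in MYC-KI samples, and its adjusted p of 0.0343 passed while its log2 fold change of 0.48 stayed under 0.585. With library size in place of TMM scaling *Id1* was called higher (0.71, adjusted p = 0.0151). *Id4* had 14.0 and 14.7 in WT and 9.70 and 10.1 in MYC-KI samples (-0.53, adjusted p = 0.0856).

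**Figure D5:**
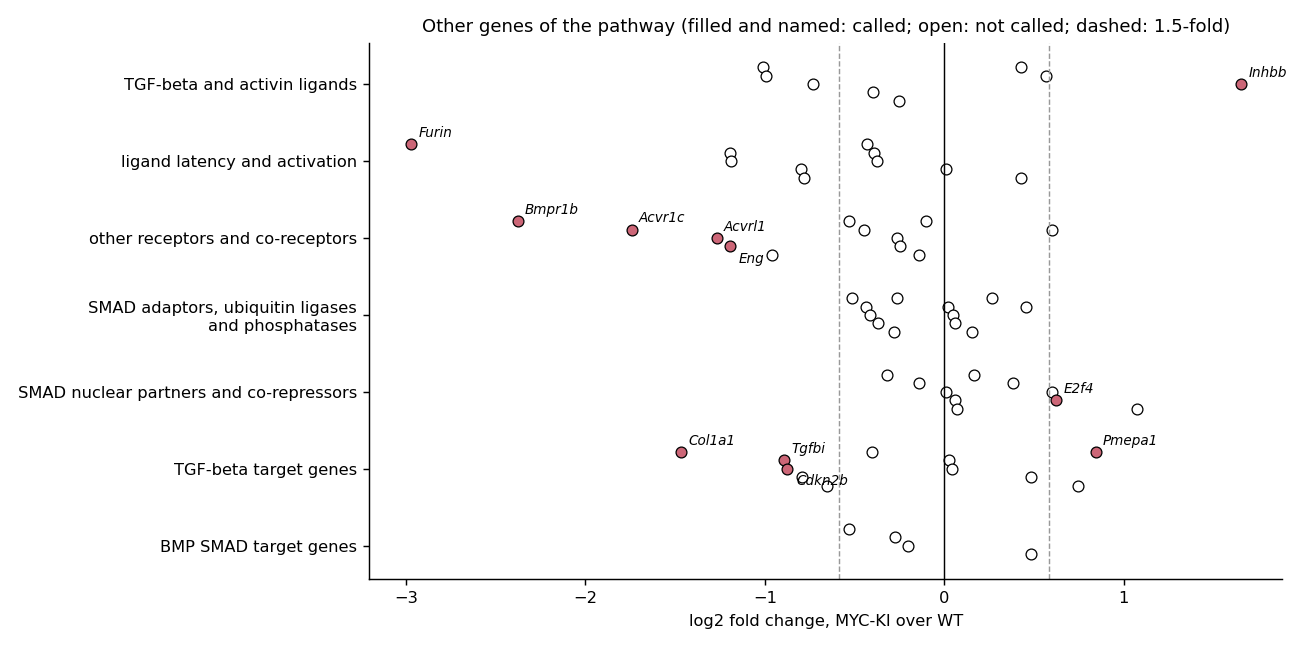
Log2 fold change of MYC-KI over WT (horizontal axis) for the 67 tested genes of 7 pathway lists. Filled and named circles are called genes, open circles are not, and dashed lines mark 1.5-fold. The 4 called receptors all lie to the left, from *Eng* (-1.19) to *Bmpr1b* (-2.38), and the 3 genes called higher are *Inhbb*, *E2f4* and *Pmepa1*.

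The row order decides what is read beside these names. Without re-sorting, 8 of the 10 members were called lower and 0 higher, where 84.1% of 22083 tested genes were called and 41.5% were called lower. The MYC-KI counts that stand beside the SMAD names in the deposited table belong, in the second order, to the *Sp* transcription factors and *Sp3os*. Those beside *Smad6* (0 and 0) and *Smad7* (0 and 0) belong to *Sp7* and *Sp8*, those beside *Smad9* (0 and 4) to *Sp9*, those beside *Smad5* (215 and 726) to *Sp6* and those beside *Smad1* (2649 and 3919) to *Sp3*. Those beside *Tgfbr1* (1146 and 2313) and *Tgfbr2* (1141 and 1365) belong to *Tmem38b* and *Tmem39a*. *Tgfbr2*, *Smad6*, *Smad9*, *Smad2*, *Smad7* and *Tgfbr1* had log2 fold changes below 0 in both orders of this table, and *Smad1* above 0 in both. *Smad3*, *Smad4* and *Smad5* were below 0 in the deposited order and above 0 after re-sorting. Since the deposited order sets counts of other genes beside these names, a sign shared by both orders says nothing about a member.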

How the data were processed

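Gastric RNA of 2 WT and 2 *Atp4b-cre;MycOE* samples was measured by bulk RNA-seq. The authors deposited 1 table of raw read counts per gene symbol, without normalization. The submitters' processing notes name HISAT2 and mm10, and the counting tool and strand setting are not given in the sources used here. Both MYC-KI columns were re-sorted as described in the report. The test was the quasi-likelihood F test of edgeR 4.0.16 (R 4.3.3) with TMM scaling, filterByExpr and no covariates, adjusted by Benjamini-Hochberg over all tested genes. Dividing the size of a log2 fold change by the square root of F gave its standard error. DESeq2 1.42.0, the tool of the study, was an alternative, beside other scalings and filters, the deposited order, a replicate block, other fold change limits and leaving out each sample. The scripts were tested on simulated data. The members and lists were chosen with earlier results of these data known. All members are named, and of each pathway list the called genes, the most abundant gene and the gene with the largest change. *Tgfb1*, *Tgfb2*, *Tgfb3* and the untested genes were named after their values were seen. Exon and coding lengths came from GENCODE M21 and promoters from RefSeq (GRCm38.p6). Samples held 30260305 to 41463647 counts. The spread between samples of a genotype was far above counting error (chi-square per degree of freedom of 28.9 in WT and 97.9 in MYC-KI, square root of the common dispersion 0.295), and the intervals cover that spread over 2 samples per genotype.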

Additional observations from a re-analysis of the deposited data

How the results depend on the processing

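Over 10 alternatives run on the re-sorted counts, the 10 members gave 100 values, of which 84 kept direction and side of the thresholds, 8 lost a call, 5 gained one and 3 changed sign. The 3 were *Smad2* with library size alone (0.11), *Smad5* without WT replicate 2 (-0.0072) and *Smad5* without MYC-KI replicate 1 (-0.010), whose values with 1 sample left out ran from -0.010 to 0.066. Of all genes, 1892 were called, against 3011 with library size alone, 3232 with DESeq2, 114 with the replicate block, 1113 above a log2 fold change of 1 and 18580 in the deposited order, and 0 to 2470 when each sample was left out. Members called were 2, against 1 with library size alone (*Tgfbr2*, since *Smad6* stood at -0.39 with an adjusted p of 0.0698), 0 with the replicate block, 0 above a log2 fold change of 1, 8 in the deposited order and 0 to 3 when each sample was left out. The 0 under the block stands beside 4 members with an unadjusted p under 0.05 in edgeR and 3 called by DESeq2. Pathway genes called were 11, against 19 with DESeq2, 0 with the replicate block (36 at an unadjusted p under 0.05), 7 above a log2 fold change of 1, 59 in the deposited order and 0 to 18 when each sample was left out. The counts of 0 came without WT replicate 1 and without WT replicate 2, and the highest counts over all genes and over the pathway (2470 and 18) without MYC-KI replicate 2. With an arm of 1, the lone sample is assumed to vary like the other genotype. In the deposited order the sign turned for *Smad3* (-2.27), *Smad4* (-4.19), *Smad5* (-2.53), *Inhbb* (-5.18), *Acvr1c* (0.25), *Bmpr1b* (2.17), *E2f4* (-1.44), *Pmepa1* (-1.13), *Cdkn2b* (2.67), *Id1* (-1.45) and *Id4* (3.26), whose MYC-KI counts then belong to other names. Library size alone moved the median of all genes from 0.01 to 0.23 and the share of higher calls from 52.6% to 75.5%, and relative to that median *Smad2* was at -0.12, *Smad6* at -0.62 and *Tgfbr2* at -0.82. The share of *Smad4* in the summed SMAD level of WT was 32.3% per merged exon length and 21.6% per coding length (the lengths behind the ratios and the summed level were varied after seeing the data), where *Tgfbr2* was above *Smad4* in WT. Same-numbered samples of the genotypes did not deviate together (r of 0.059 over 15777 genes), so the numbers were not taken as pairs. The causes of the other shifts were not tested.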
